A study of Caenorhabditis elegans with 6 samples.

Results

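The ribosomal protein genes of *Caenorhabditis elegans* were the subject here: every gene whose symbol starts with rpl- (large subunit), rps- (small subunit) or rla- (ribosomal stalk) and that had at least 10 reads in at least 3 of the 6 libraries. All 81 genes with such a symbol met the read minimum, 47 of them rpl, 31 rps and 3 rla, among 16596 genes tested and 46778 gene identifiers listed. RNA was sequenced from whole young adult animals of an age-synchronized population, with 3 biological replicates of wild type and 3 of *vhl-1* null mutants (allele ok161 in the study's strain list), and the question was which transcripts differ between these genotypes. The gene *vhl-1* is the worm ortholog of the von Hippel-Lindau tumor suppressor, which marks the hypoxia-inducible factor HIF-1 for degradation, so that HIF-1 is stable in the mutant. The mutants were maintained without any drug or hypoxia named in the labels, and they lack *vhl-1* in every tissue, so the comparison holds no single cell type.

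The ribosome is built from a small subunit, which reads the messenger RNA, and a large subunit, which joins amino acids. Each consists of ribosomal RNA and a set of proteins that are needed in nearly equal numbers, and their genes are therefore known for high and closely matched expression. In an adult hermaphrodite worm the germline makes up a large share of the ribosome-rich tissue. In RNA from whole animals, fewer cells of a type and less RNA per cell cannot be told apart.

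The libraries held 52462303 to 82910026 reads on genes. Normalised *vhl-1* read counts were 6.37, 7.08 and 7.49 CPM (reads scaled to the normalised library size) in wild type and 0.083, 0.0369 and 0.0162 CPM in the mutants (log2 fold change -7.14, standard error 0.40, edgeR quasi-likelihood adjusted p = 0.00066), so the targeted transcript followed the labels in all 6 libraries. Markers of oocytes and eggshell differed strongly within each genotype: their summed level was 2306.2, 1165.5 and 740.0 CPM in wild type replicates 1 to 3 and 1918.0, 475.3 and 1273.5 CPM in *vhl-1* replicates 1 to 3, with all 12 markers detected in every library. Ribosomal RNA genes took 0.646 to 2.4% of the reads.

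First, the level of each gene was compared per length, as CPM divided by the length of its exons in kilobases. Most ribosomal protein genes lay in a band, with 77 genes between 500 and 5000 CPM per kb. The median over the 81 genes was 2646.3 CPM per kb and the quartiles were 1765.7 and 3189.8 CPM per kb. Level per kb had a rank correlation of 0.36 with exon length, so shorter members tended to rank lower. The part of length in these levels was not tested. The highest levels per kb were those of *rps-25* (4280.1 CPM per kb), *rps-23* (4231.3 CPM per kb), *rps-8* (3900.0 CPM per kb), *rla-0* (3864.3 CPM per kb) and *rpl-23* (3768.6 CPM per kb). The product of *rps-23* lies near the site where codons are read, and that of *rpl-23* at the face where the subunits meet. Apart from *rps-23* and *rps-8*, neighbours in this order differed by less than the standard deviation of either gene over the 3 wild type libraries, which was 511.1 CPM per kb for *rps-25* and 130.3 CPM per kb for *rla-0*.

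Far below the band were 4 genes. The lowest was *rpl-42* at 4.96 CPM per kb, followed by *rpl-37* at 19.5 CPM per kb, *rpl-41.1* at 112.8 CPM per kb and *rpl-24.2* at 127.1 CPM per kb. The last of these is a homolog of the yeast protein Rlp24, an assembly factor that holds the place of the mature protein on the nascent large subunit, whereas *rpl-24.1* encodes the mature protein and stood at 3231.2 CPM per kb. The annotated exons of *rpl-37* form a single block of 276 bp. The next genes upward, *rpl-25.1* (804.9 CPM per kb) and *rpl-39* (806.4 CPM per kb), already belonged to the band. The order of these 4 means was the same in both genotypes, although *rpl-41.1* and *rpl-24.2* differed by less than the standard deviation of *rpl-41.1* in wild type (27.8 CPM per kb). In detail, *rpl-42* had 5.07 ± 0.77 CPM per kb in wild type and 4.86 ± 1.15 in *vhl-1*, and *rpl-37* had 17.8 ± 4.95 and 21.2 ± 5.87 (SD, n = 3 each).

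**Figure D1:**
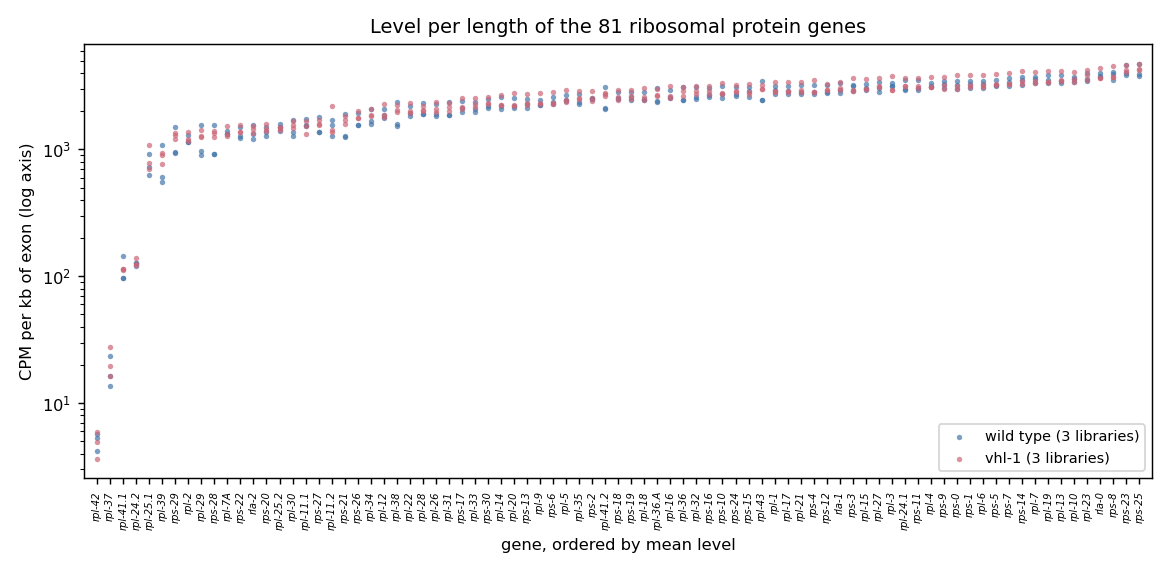
Level of each of the 81 ribosomal protein genes in CPM per kb of exon (log axis), ordered from lowest to highest mean, with 1 point per library (3 wild type, 3 *vhl-1*). Most genes lie between 500 and 5000 CPM per kb, and *rpl-42*, *rpl-37*, *rpl-41.1* and *rpl-24.2* stand below, with the points of both genotypes mixed.

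Next, the genotypes were compared gene by gene. None of the 81 ribosomal protein genes passed an adjusted p of 0.05 in edgeR's quasi-likelihood test, where 1.25% of all genes tested did. None passed with edgeR's likelihood ratio test (3.46% of all genes), limma-voom (1.11%) or DESeq2 (3.45% of the genes to which it gave an adjusted p), and none had an unadjusted p under 0.05 in the quasi-likelihood test, against 9.38% of all genes. In no member did the 3 *vhl-1* libraries lie wholly above the 3 wild type libraries (6.97% of all genes) or wholly below them (7.48%). The lowest adjusted p among the members in edgeR's quasi-likelihood test was 0.90, that of *rps-21*.

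The fitted differences were small and mostly of 1 sign. The log2 fold change of *vhl-1* over wild type had a median of 0.067 over the 81 genes (a fold of 1.05), quartiles of 0.045 and 0.10 and a range from -0.094 to 0.25, with 77 genes above 0 and 4 below. Over all genes tested the median was 0.0059 and the quartiles were -0.12 and 0.17. This excess of positive values depended on single libraries of both genotypes. Without *vhl-1* replicate 2 the median was -0.013, with 32 members above 0 and 49 below, against 0.0053 over all genes. Without wild type replicate 1 it was 0.022, with 59 members above 0 and 22 below, and thus below the 0.032 of all genes. Without wild type replicate 2 or 3 it was 0.037 or 0.14, against -0.0088 or -0.00084 over all genes. The standard errors of single genes ran from 0.085 to 0.28, and 69 genes had one under 0.15.

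The 2 subunits and the stalk had similar values. The median log2 fold change was 0.067 for the large subunit (43 genes above 0, 4 below), 0.066 for the small subunit (all 31 above 0) and 0.043 for the stalk (all 3 above 0), and all 3 medians rest on the same libraries as the median over all members. The ratio of large-subunit to small-subunit reads was 1.312, 1.286 and 1.309 in wild type and 1.293, 1.301 and 1.314 in *vhl-1*, so the genotypes overlapped. The difference between genotypes was below the range between the 3 wild type libraries in 80 of the 81 genes, and below the range between the 3 *vhl-1* libraries in 76. The same held for 13512 of the 16596 genes tested in either genotype. The median range within a genotype was 0.24 log2 units in wild type and 0.25 in *vhl-1*, narrower than the 0.41 and 0.42 of all genes. However, 79 members had 1000 reads or more in every library, whereas all genes tested include genes with few reads. Ranges were not compared at like read counts.

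**Figure D2:**
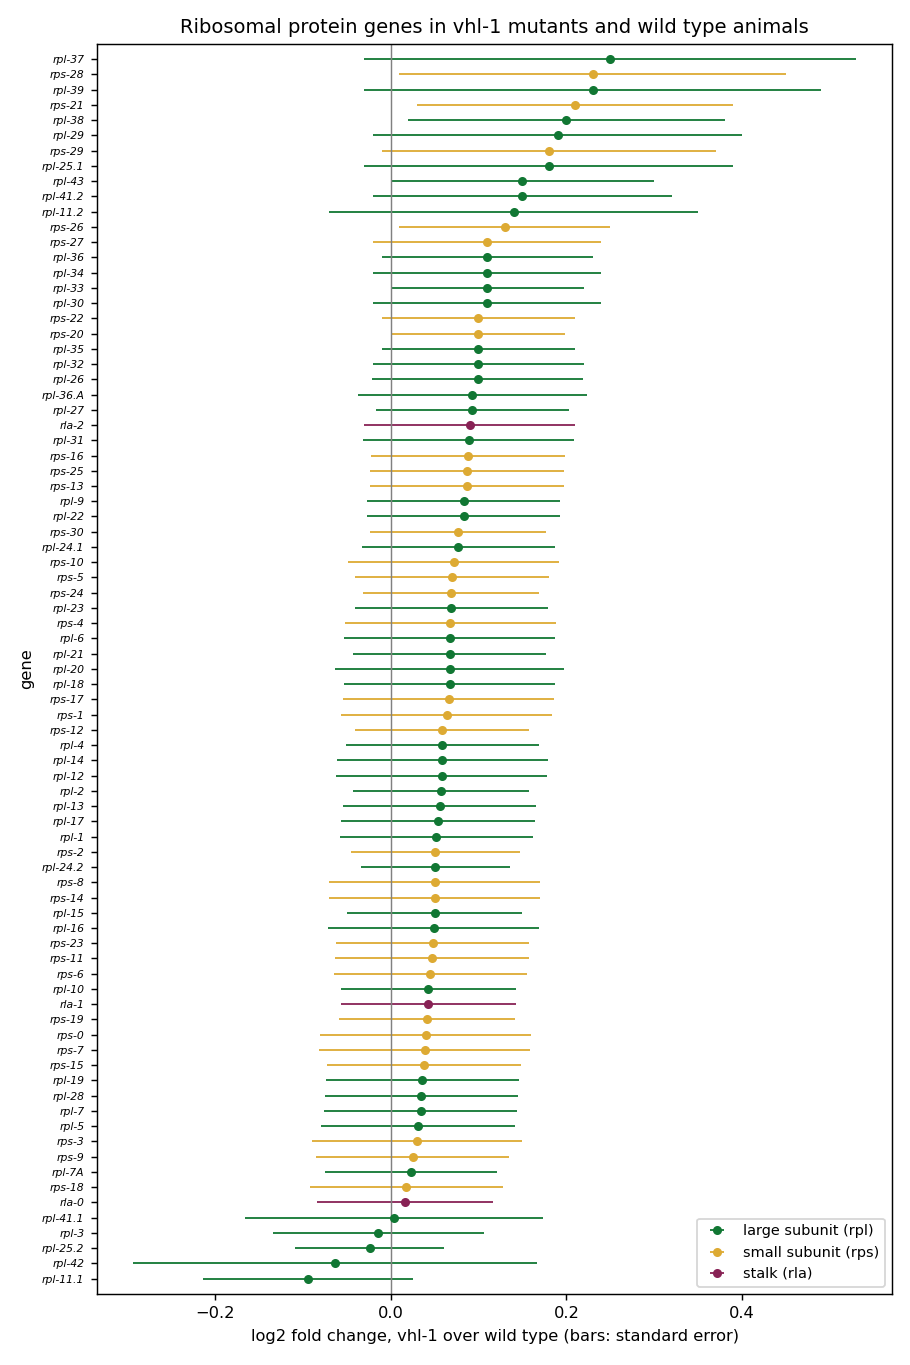
Log2 fold change of *vhl-1* over wild type for each of the 81 ribosomal protein genes, with bars of 1 standard error, colored by large subunit, small subunit and stalk. The values run from -0.094 (*rpl-11.1*) to 0.25 (*rpl-37*), 77 are above 0, and without *vhl-1* replicate 2 there are 32 above 0.

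The stalk proteins form the flexible arm of the large subunit that recruits elongation factors, with the product of *rla-0* as its base and those of *rla-1* and *rla-2* bound to it. Normalised counts of *rla-0* were 3860.5, 3929.9 and 4120.5 CPM in wild type and 3753.9, 4486.1 and 3800.1 CPM in *vhl-1*. The second mutant library was the highest and the other two mutant libraries the lowest, so the groups overlapped, with a log2 fold change of 0.016 (standard error 0.10). For *rla-1* the libraries had 1237.8, 1296.8 and 1460.2 CPM in wild type and 1339.2, 1486.3 and 1290.4 CPM in *vhl-1*, again overlapping, with a log2 fold change of 0.043. For *rla-2* they had 541.4, 598.1 and 697.6 CPM in wild type and 647.3, 695.3 and 612.7 CPM in *vhl-1* (log2 fold change 0.09, standard error 0.12, edgeR adjusted p = 0.98). Here wild type held both the lowest and the highest library.

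The members with the highest log2 fold changes were *rpl-37*, *rps-28*, *rpl-39*, *rps-21* and *rpl-38*. The product of *rps-21* is a small-subunit protein, and its counts were 392.1, 382.0 and 581.7 CPM in wild type and 484.2, 562.1 and 523.0 CPM in *vhl-1*. The mutants thus lay above wild type replicates 1 and 2 and below replicate 3, and the fitted difference was 0.21 log2 units (standard error 0.18, edgeR adjusted p = 0.90). The same arrangement was seen for *rps-28*, with 233.3, 233.5 and 393.3 CPM in wild type and 316.3, 337.3 and 354.5 CPM in *vhl-1* (log2 fold change 0.23, standard error 0.22, edgeR adjusted p = 0.92). Without wild type replicate 3 these values were larger, with log2 fold changes of 0.43 for *rps-21*, 0.52 for *rps-28*, 0.59 for *rpl-39*, 0.42 for *rpl-38* and 0.49 for *rpl-37*. No member was called in that fit either, where the lowest adjusted p in edgeR's quasi-likelihood test was 0.13.

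The product of *rpl-39* lines the tunnel through which the growing peptide leaves the ribosome. Its counts were 142.5, 129.6 and 254.1 CPM in wild type and 214.2, 180.0 and 221.3 CPM in *vhl-1*, a range of 0.97 log2 units within wild type against a fitted difference of 0.23 log2 units (standard error 0.26, edgeR adjusted p = 0.96). The product of *rpl-38*, which in mice is known for its part in the translation of Hox messages, had 473.7, 458.6 and 703.5 CPM in wild type and 592.5, 612.7 and 670.8 CPM in *vhl-1* (log2 fold change 0.20, standard error 0.18, edgeR adjusted p = 0.91). In both genes, as in *rpl-29* with 233.4, 216.7 and 375.0 CPM in wild type and 304.5, 298.1 and 341.6 CPM in *vhl-1*, the third wild type library was the highest of all 6. The remaining gene, *rpl-37*, rested on few reads, with 3.79, 4.55 and 6.44 CPM in wild type and 4.48, 7.64 and 5.45 CPM in *vhl-1* (log2 fold change 0.25, standard error 0.28, edgeR adjusted p = 0.95), and without *vhl-1* replicate 2 its log2 fold change was 0.015.

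At the other end were *rpl-11.1*, *rpl-42*, *rpl-25.2*, *rpl-3* and *rpl-41.1*. The product of *rpl-3* lies close to the site where peptide bonds form, and it was the member with the most reads. It had 4576.9, 4619.7 and 4902.0 CPM in wild type and 4245.0, 5472.5 and 4241.7 CPM in *vhl-1*. The wild type libraries lay inside the range of the mutants, and the fitted difference was -0.014 log2 units (standard error 0.12, edgeR adjusted p = 1.00). Low counts and overlapping groups marked *rpl-42*, with 4.13, 3.81 and 3.05 CPM in wild type and 4.29, 2.64 and 3.60 CPM in *vhl-1* (log2 fold change -0.063, standard error 0.23, and 0.11 without *vhl-1* replicate 2).

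In the share of reads, the widest gap between single libraries of a genotype was larger than the gap between the genotype means. These are unlike measures, since each mean averages 3 libraries. Ribosomal protein genes took 11.18, 11.67 and 12.26% of all reads on genes in wild type replicates 1 to 3 and 11.85, 13.72 and 11.92% in *vhl-1* replicates 1 to 3, and the exact 95% binomial interval of the highest of these, which covers counting error only, ran from 13.71 to 13.73%. The means were 11.7 ± 0.544% in wild type and 12.5 ± 1.06% in *vhl-1* (SD, n = 3 each), and the groups overlapped. The difference of 0.795 percentage points was above the SD of wild type and below that of *vhl-1*. It was 0.184 without *vhl-1* replicate 2 and at most 1.12 when another library was left out. With ribosomal RNA reads set aside the difference was 0.835 percentage points.

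The same libraries stood out when each gene was given equal weight. The shift of a library was taken as the median over the 81 genes of log2 CPM minus the gene's mean over the 6 libraries. It was -0.13, -0.074 and 0.11 in wild type replicates 1 to 3 and -0.03, 0.18 and -0.041 in *vhl-1* replicates 1 to 3. Over all genes tested the median stayed between -0.0051 and 0.019, where the scaling itself holds it near 0. Single genes spread more widely, with quartiles over all genes of -0.23 and 0.18 in wild type replicate 1. In *vhl-1* replicate 2 these quartiles were -0.21 and 0.29. The highest library was *vhl-1* replicate 2 for 60 members and wild type replicate 3 for 19, and the lowest was wild type replicate 1 for 53 members and wild type replicate 2 for 14. By subunit, the shift of *vhl-1* replicate 2 was 0.19 for the large subunit, 0.17 for the small subunit and 0.14 for the stalk. With library size alone in place of normalisation factors, the shift of wild type replicate 3 was 0.031.

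**Figure D3:**
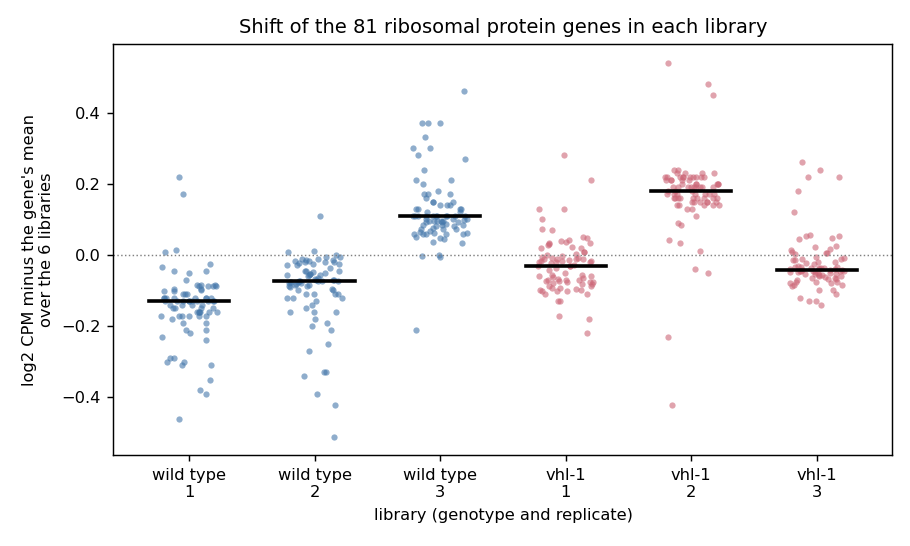
Shift of each of the 81 ribosomal protein genes in each library, as log2 CPM minus the gene's mean over the 6 libraries, with 1 point per gene and a bar at the median. The medians of wild type replicate 3 (0.11) and *vhl-1* replicate 2 (0.18) are above 0, and those of the other 4 libraries are between -0.13 and -0.03.

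Most members followed 1 profile over the 6 libraries. Pearson's r between a gene's log2 CPM and the median of the other members, a description over 6 libraries that share their normalisation, was 0.9 or more for 58 genes. It was negative for *rpl-42* (-0.92) and *rpl-11.1* (-0.81), and the next lowest values were those of *rpl-25.2* (0.15), *rpl-39* (0.49) and *rps-29* (0.57). Both genes with a negative r were lowest in *vhl-1* replicate 2, the library where most members were highest, with 866.6 CPM for *rpl-11.1* and 2.64 CPM for *rpl-42*.

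Ribosomal proteins that do not carry an rpl, rps or rla symbol shared that profile. For *ubl-1* and *ubq-2*, which encode ubiquitin fused to a ribosomal protein, and *rack-1*, a small-subunit scaffold protein, the median shift was -0.12, -0.067 and 0.11 in wild type and -0.049, 0.19 and -0.073 in *vhl-1*. Their log2 fold changes were 0.075, 0.052 and 0.016. The 6 cytosolic elongation factor genes had median shifts of -0.013, -0.032 and -0.0037 in wild type and -0.042, 0.15 and -0.047 in *vhl-1*. Their shift was thus above 0 in *vhl-1* replicate 2 and near 0 in wild type replicate 3, and none was called (5 of 6 above 0, median log2 fold change 0.048).

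Genes for building ribosomes had other values than the ribosomal proteins. Of 27 genes listed for ribosome assembly (mostly nucleolar proteins, processing factors and RNA polymerase I subunits), 26 were matched and tested. None was called by edgeR's quasi-likelihood test, 21 were below 0 and 5 above, and the median log2 fold change was -0.086. In 6 of these 26 genes the 3 *vhl-1* libraries lay wholly below wild type, a larger share than the 7.48% of all genes. In 0 they lay wholly above, against 6.97% of all genes. The lowest adjusted p of that list, 0.43 in edgeR's test, belonged to *rpoa-2*, an RNA polymerase I subunit, with 184.4, 169.1 and 165.2 CPM in wild type and 147.7, 146.8 and 152.9 CPM in *vhl-1* (log2 fold change -0.21, standard error 0.079). The median shift of the list was highest in wild type replicate 1 (0.12), where the ribosomal protein genes were lowest. Of 69 mitochondrial ribosomal protein genes, 49 were below 0 and 20 above, with a median log2 fold change of -0.037. The lowest adjusted p among them was 0.62 in edgeR's test. In 7 of the 69 the *vhl-1* libraries lay wholly below wild type and in 1 wholly above, against 7.48% and 6.97% of all genes.

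Germline and oocyte markers moved against the ribosomal protein genes in several libraries. The median shift of 12 germline markers was 0.30, 0.0018 and -0.22 in wild type and 0.16, -0.31 and 0.072 in *vhl-1*, and that of 12 oocyte and eggshell markers was 0.93, 0.014 and -0.64 in wild type and 0.77, -1.15 and 0.17 in *vhl-1*. Both lists were thus lowest in *vhl-1* replicate 2 and wild type replicate 3, where the ribosomal protein genes were highest, and both were highest in wild type replicate 1. The summed level of the germline markers ranged from 2687.1 to 4231.0 CPM in wild type and from 2246.1 to 3759.1 CPM in *vhl-1*, and none of the 12 was at 0 in a library. In the fit, 10 of the 12 germline and all 12 oocyte and eggshell markers had a log2 fold change below 0, and none was called. The 6 yolk protein genes differed most, with a summed level of 4878.5 to 17321.5 CPM in wild type, highest in replicate 1, and of 795.6 to 6353.6 CPM in *vhl-1*, lowest in replicate 2. All 6 had a log2 fold change below 0, with a median of -1.76 and a median standard error of 0.80. None of the 6 was called (lowest adjusted p 0.31 in edgeR's quasi-likelihood test). In 3 of them the *vhl-1* libraries lay wholly below wild type, against 7.48% of all genes, and in 0 wholly above, against 6.97%. The 6 neuronal markers summed to 272.2 to 318.7 CPM in wild type and 294.6 to 375.9 CPM in *vhl-1*, highest in replicate 2.

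Lists for stage and for other tissues also differed between libraries. The 8 larval cuticle and molting genes had a median shift of -0.98, 0.25 and 0.20 in wild type and -0.20, 0.48 and 0.33 in *vhl-1*, so that they, like the ribosomal protein genes, were lowest in wild type replicate 1 and highest in *vhl-1* replicate 2. Their summed level ranged from 1247.2 to 3227.1 CPM in wild type and from 2503.3 to 3666.1 CPM in *vhl-1*. The 4 adult cuticle genes had a median shift of 0.58, 0.069 and 0.27 in wild type and of 0.71, -1.79 and 0.12 in *vhl-1*. Their sums were 1445.8 to 1806.4 CPM and 949.4 to 1723.2 CPM. These 4 genes did not move together. In wild type replicate 1 only 2 were above their own mean (quartiles -0.84 and 2.13), and in *vhl-1* replicate 2 only 1 was (quartiles -3.60 and -0.20). Intestine and body wall muscle markers, 6 each, were highest in wild type replicate 3 (shifts 0.27 and 0.15), and the 11 sperm markers were lowest in *vhl-1* replicate 2 (-0.63). None of these markers was at 0 in a library. The part of tissue makeup or stage in the shift of the ribosomal protein genes was not tested.

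Gene length varied together with how strongly a member shifted. The members' exons added up to 236 bp (*rpl-39*) to 1456 bp (*rpl-3*), with a median of 530 bp against 1334 bp for all protein-coding genes tested. Over the 81 genes, Spearman's rho between exon length and the shift was 0.74, 0.75 and -0.78 in wild type and -0.64, 0.49 and -0.57 in *vhl-1*, and rho between exon length and the log2 fold change was -0.63. These are descriptions across genes of shared libraries. Other genes showed a length trend too: over all other protein-coding genes tested, the median log2 fold change was 0.12 for 573 genes of under 400 bp, 0.054 for 1945 genes of 400 to under 700 bp and -0.0026 for 13056 genes of 700 bp or more. Among the 1776 of them at 100 CPM or more, rho between exon length and log2 fold change was -0.02.

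Split by length, a division chosen after the values were seen, the 14 genes of under 400 bp had a median log2 fold change of 0.17, the 46 genes of 400 to under 700 bp one of 0.067 and the 21 genes of 700 bp or more one of 0.045. The shift of the shortest genes was -0.29, -0.26 and 0.29 in wild type and 0.043, 0.14 and 0.053 in *vhl-1*, so that they differed more among the wild type libraries than among the mutants. The median of the shortest genes was 0.39 without wild type replicate 3, and 0.069 or 0.049 without wild type replicate 1 or 2. The longest genes shifted by -0.10, -0.026 and 0.074 in wild type and -0.082, 0.21 and -0.056 in *vhl-1*, and without *vhl-1* replicate 2 their median log2 fold change was -0.058. Of the 573 other protein-coding genes of under 400 bp, 383 had a log2 fold change above 0, and their shift was 0.082 in wild type replicate 3 and -0.12 in *vhl-1* replicate 2. The 17 of them at 100 CPM or more had shifts of 0.42 and -0.15 in these libraries and a median log2 fold change of -0.018.

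**Figure D4:**
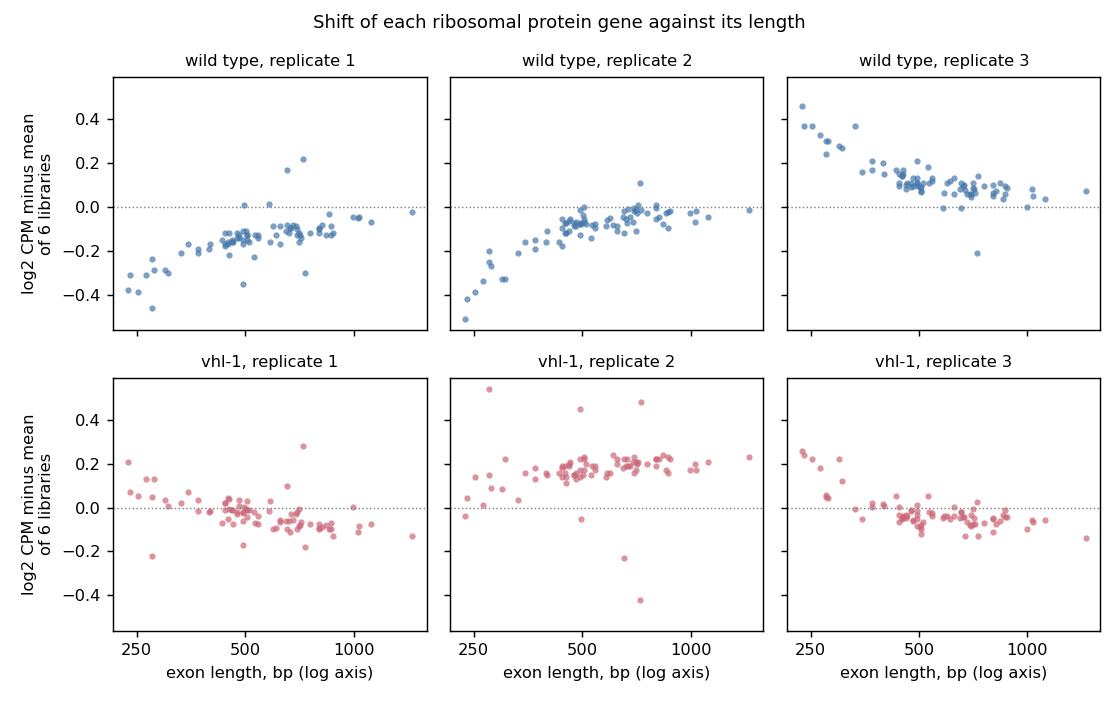
Shift of each ribosomal protein gene (log2 CPM minus its mean over the 6 libraries) against its exon length in bp (log axis), with 1 panel per library and 1 point per gene. The genes of under 400 bp have a median shift of -0.29 and -0.26 in wild type replicates 1 and 2 and of 0.29 in wild type replicate 3, whereas in *vhl-1* replicate 2 they have 0.14 and the genes of 700 bp or more 0.21.

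Paralog pairs, which are genes that share a symbol up to the number after the point, allow the choice between copies to be compared. There were 4 pairs, each compared by the share of the pair's reads on its first gene, with a two-sided exact permutation test whose smallest possible p is 0.1 with 3 libraries against 3, and with adjustment over the 4 pairs. How reads that match both copies were counted is not given in the sources used here, so these shares are uncertain where the copies are near-identical.

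The proteins encoded by *rpl-11.1* (V:3585312-3586064) and *rpl-11.2* (X:2241738-2242618) bind a small ribosomal RNA of the large subunit. The share of *rpl-11.1* was 55.2, 46.9 and 44.6% in wild type and 51.9, 35.1 and 48.9% in *vhl-1*. It ranged more widely among the mutants, from the lowest value of all to the second highest, and the means were 48.9 ± 5.55% and 45.3 ± 8.94% (SD, n = 3 each, exact permutation p = 0.7, adjusted p = 0.8). The difference of -3.61 percentage points was 1.48 without *vhl-1* replicate 2 and -6.92 at the other end of the range over single libraries left out. Normalised counts of *rpl-11.1* were 1144.6, 1001.4 and 1011.5 CPM in wild type and 1091.3, 866.6 and 1000.3 CPM in *vhl-1* (log2 fold change -0.094, standard error 0.12, edgeR adjusted p = 0.97). Those of *rpl-11.2* were 930.0, 1131.6 and 1256.5 CPM in wild type and 1010.6, 1600.3 and 1047.2 CPM in *vhl-1* (log2 fold change 0.14, standard error 0.21, edgeR adjusted p = 0.99). Without *vhl-1* replicate 2 the log2 fold change was -0.0089 for *rpl-11.1* and -0.10 for *rpl-11.2*. In 4 of the 6 libraries the copies lay on opposite sides of their own means, and their sum had a log2 fold change of 0.031 (standard error 0.10).

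From highest to lowest, the share of *rpl-11.1* fell in the order wild type 1, *vhl-1* 1, *vhl-1* 3, wild type 2, wild type 3 and *vhl-1* 2, which is also the order of the oocyte and eggshell markers' median shift (0.93, 0.77, 0.17, 0.014, -0.64 and -1.15). The order was seen in the values and not looked for beforehand, and the part of oocyte content in the share was not tested.

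The second pair, *rpl-25.1* (X:4715178-4715796) and *rpl-25.2* (I:8329062-8329647), encodes a protein at the mouth of the peptide tunnel. The share of *rpl-25.1* was 29.4, 34.0 and 36.5% in wild type and 32.1, 42.9 and 34.3% in *vhl-1*, with means of 33.3 ± 3.57% and 36.4 ± 5.71% (SD, n = 3 each, exact permutation p = 0.5, adjusted p = 0.8). It was highest in *vhl-1* replicate 2 and lowest in wild type replicate 1. The groups overlapped, and without *vhl-1* replicate 2 the difference of 3.16 percentage points was -0.0691. The share of *rpl-25.1* rose over the libraries as the oocyte and eggshell markers fell, except that wild type replicate 2 and *vhl-1* replicate 3 changed places. An order like that of the markers was thus not particular to the *rpl-11* pair, and the part of oocyte content was not tested here either. Counts of *rpl-25.1* were 307.7, 357.3 and 453.2 CPM in wild type and 348.0, 532.4 and 387.2 CPM in *vhl-1* (log2 fold change 0.18, standard error 0.21, and -0.02 without *vhl-1* replicate 2). Those of *rpl-25.2* were 737.9, 695.1 and 789.6 CPM in wild type and 735.9, 708.3 and 740.9 CPM in *vhl-1*, with a log2 fold change of -0.024 and a standard error of 0.085, the lowest among the members and shared with *rpl-24.2*.

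The copies *rpl-11.2* and *rpl-25.1* were also the only members on the X chromosome, 2.47% of the members against 14.4% of the other protein-coding genes tested. The X chromosome is known to be largely silent in the worm germline. The median shift of these 2 genes was -0.32, -0.073 and 0.17 in wild type and -0.17, 0.46 and -0.071 in *vhl-1*. The 2240 other protein-coding genes on X had shifts of -0.12, 0.033 and 0.12 in wild type and -0.12, 0.15 and -0.043 in *vhl-1*, of the same sign in 5 of the 6 libraries. The 25 members on chromosome I had median shifts of -0.13, -0.057 and 0.095 in wild type and -0.051, 0.19 and -0.047 in *vhl-1*. Their signs, and those of the members on II, III and IV, matched the other X genes in the same 5 libraries. The match was thus not particular to the 2 members on X, and the part of the germline was not tested. The other members were on chromosomes I (25 genes), II (10), III (18), IV (18) and V (8).

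The pair *rpl-41.1* (I:4789190-4789592) and *rpl-41.2* (I:4790292-4790642) lies side by side on chromosome I and encodes the smallest protein of the ribosome. The share of *rpl-41.1* was 5.21, 5.13 and 5.19% in wild type and 4.58, 4.76 and 4.76% in *vhl-1*. The groups did not overlap, with means of 5.18 ± 0.0403% and 4.70 ± 0.104% (SD, n = 3 each), and the exact permutation p of 0.1 was the smallest the design allows, with an adjusted p of 0.4. The difference of -0.48 percentage points stayed between -0.511 and -0.42 with single libraries left out. Counts of *rpl-41.1* were 31.9, 32 and 47.9 CPM in wild type and 37.5, 37.9 and 36.8 CPM in *vhl-1* (log2 fold change 0.0037, standard error 0.17). Those of *rpl-41.2* were 581.1, 592.2 and 875.0 CPM in wild type and 781.2, 758.5 and 735.9 CPM in *vhl-1* (log2 fold change 0.15, standard error 0.17, edgeR adjusted p = 0.96). Each gene alone overlapped between genotypes, with wild type replicate 3 the highest library of both.

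In the fourth pair the copies differed most in level. The share of *rpl-24.1*, the mature ribosomal protein, was 95.5, 95.9 and 96.3% in wild type and 95.9, 96.1 and 96.0% in *vhl-1*, a difference of 0.0866 percentage points (exact permutation p = 0.8, adjusted p = 0.8). Counts of *rpl-24.1* were 1590.2, 1637.4 and 1905.5 CPM in wild type and 1707.3, 1999.0 and 1707.4 CPM in *vhl-1* (log2 fold change 0.077, standard error 0.11). The assembly-factor homolog *rpl-24.2* had 74.8, 69.8 and 73.8 CPM in wild type and 73.1, 81.4 and 71.6 CPM in *vhl-1* (log2 fold change 0.051, standard error 0.085). Both genes were highest in *vhl-1* replicate 2, and in both the genotypes overlapped.

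**Figure D5:**
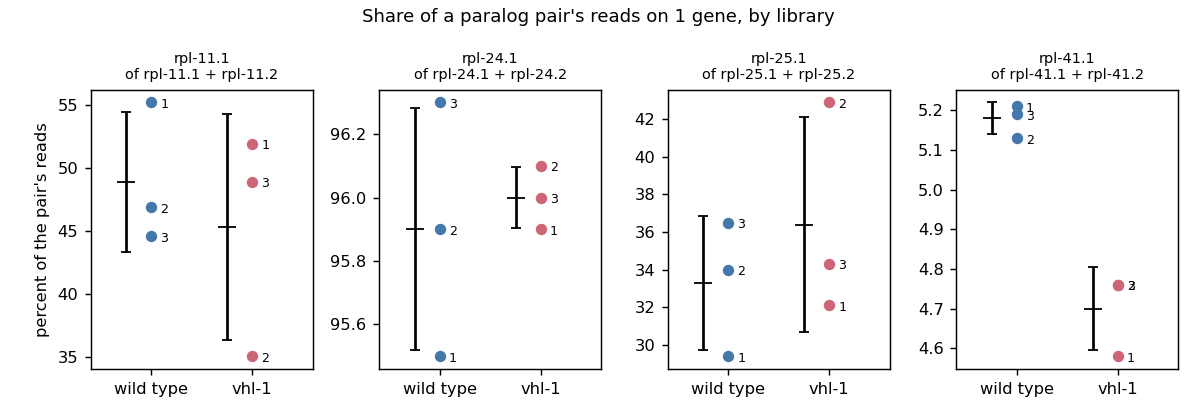
Share of a paralog pair's reads on 1 gene (percent), with 1 numbered point per library and the mean ± SD of each genotype (n = 3); each panel has its own axis, which does not start at 0. Only the share of *rpl-41.1* does not overlap between genotypes (5.13 to 5.21% in wild type, 4.58 to 4.76% in *vhl-1*, where replicates 2 and 3 share a point).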

How the data were processed

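Whole young adult *C. elegans* were compared by single-end messenger RNA sequencing (50 bp reads) in 3 wild type and 3 *vhl-1*(ok161) libraries. The authors deposited raw read counts per gene, 1 table per library, and their processing notes name Trim Galore 0.4.3.1, STAR 2.6.0b, featureCounts 1.6.3, FastQC 0.71 and DESeq2 2.2.12.40.3; strandedness and the treatment of multiply mapped reads are not given in the sources used here. Each table had 1 line that named no gene, which was left out. Symbols, positions and exon lengths came from Ensembl release 115 (WBcel235), in which 46603 of the 46778 identifiers were found and 175 were not. Levels per kb assume its exon lengths, and 15 members' exons overlap another gene, by at most 8.36% of their length where that gene had reads.

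Genes with low counts were removed with edgeR's filter by genotype, counts were scaled with trimmed mean of M values factors, and genotypes were compared with edgeR 4.0.16 (quasi-likelihood test, Benjamini-Hochberg adjustment over all 16596 genes, threshold 0.05) in R 4.3.3. Log2 CPM used a prior count of 2. The standard errors given are approximate: the absolute log2 fold change divided by the square root of the quasi-likelihood test's F statistic. Shares within paralog pairs were compared with an exact permutation test over the 20 arrangements of the libraries (scipy 1.17.1, Python 3.11.15). The scripts were tested on simulated data. Alternatives were limma-voom (limma 3.58.1), DESeq2 1.42.0, edgeR's likelihood ratio test, other scalings and filters, a replicate block and each library left out. No pair of libraries of the same genotype behaved as 1 library deposited in duplicate: the chi-square per gene between replicates was 44.7 to 323. Pairs across genotypes were not compared in this way. The edgeR p-values set the difference between genotypes against the spread between these biological replicates, without pairing in the main fit. The permutation p-values place the observed difference among the 20 arrangements.

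The members and gene lists were chosen with earlier results of these data known. Named members were the paralog pairs, the stalk genes, any member past the threshold, the 5 highest and 5 lowest log2 fold changes, the 5 highest and 5 lowest levels per kb, the 3 largest ranges within a genotype and the 3 fold changes nearest 0; *rps-29* was named after its values were seen. No sequences are shown.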

Additional observations from a re-analysis of the deposited data

How the results depend on the processing

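No ribosomal protein gene was called under any alternative, and none of the 414 values of the 23 named members under the alternatives passed the threshold. The median log2 fold change of the members was 0.056 with DESeq2, 0.064 with limma-voom, 0.058 with relative log expression factors, 0.075 with upper-quartile factors, 0.10 with library size alone (where the median over all genes was 0.04), 0.11 with cyclic loess and 0.066 when ribosomal protein and ribosomal RNA genes were kept out of the scaling. With single libraries left out it ran from -0.013 to 0.14. For the members of under 400 bp it was 0.39 without wild type replicate 3, and the cause was not tested. Over all genes, the deviations of same-numbered libraries of the genotypes from their group means had correlations of 0.55, 0.44 and -0.016. Those of differently numbered libraries ran from -0.48 to 0.23. Over the 81 members the same-numbered correlations were 0.49, 0.49 and 0.49, and the differently numbered ones ran from -0.75 to -0.083. A gene's deviations cancel out within a genotype, so positive same-numbered correlations bring negative differently numbered ones with them. The contrast between them is thus not separate evidence, and the members share much of 1 profile. These values are at most a weak hint of pairing, from the data and not from the design, and the third same-numbered value over all genes was -0.016. The numbers are shared only by the sample titles, so they were not treated as pairs in the main fit. With the replicate number as a block, 0 members were called, the median was 0.064 and the lowest adjusted p 0.61 in edgeR's test. DESeq2 with the block gave 0 calls among the members and a median of 0.054. Over all genes, the block raised the calls from 207 to 354 in edgeR's quasi-likelihood test and from 653 to 909 in DESeq2. As for depth, 79 members had 1000 reads or more in every library; *rpl-42* had as few as 152 and *rpl-37* as few as 284.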
